A study of Mus musculus with 6 samples.

Results

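The netrin, neurotrophin and axon guidance genes described here are 4 genes, Ntn5, Cntn2, Unc5b and Ngfr, of 817 genes with deposited values. They were chosen by gene symbol from results of the same comparison, so their differences between the groups are given as a description and are not tested. RNA of cultured mouse cells was sequenced in 6 libraries. In 3 of them the cells, termed LHX8 deficient in the labels, had received siRNA against Lhx8, a LIM homeobox transcription factor. In the other 3, termed wild-type, they had received only the transfection reagent (Turbofectamine), which the labels term vehicle. The labels describe preadipocytes of 3T3-L1, a mouse fibroblast-derived line that can be turned into fat cells, and number that line upward from 1 sample to the next, while the study speaks of cultured adipocytes. The time after transfection, and whether replicates were separate cultures, are not stated, and the spread between replicates may be technical. By the labels no library had a control siRNA, so loss of Lhx8 and the presence of any siRNA cannot be told apart. The study also terms the sequenced controls vehicle-treated, while it names a non-silencing siRNA as the control in other assays of mouse adipocytes. Lhx8 has no entry in either table, so its knockdown was not checked in these libraries.

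Netrins are secreted, laminin-related proteins that attract or repel growing axons. Attraction runs through the receptors DCC and neogenin, and repulsion through the UNC5 family. Neurotrophins such as nerve growth factor keep neurons alive and bind TRK kinases and the low-affinity receptor p75, the product of Ngfr. Contactins are adhesion molecules of the immunoglobulin superfamily that are anchored in the membranes of axons and glia. These families also work outside the nervous system. Fat cells secrete nerve growth factor, thermogenic fat depends on sympathetic nerves, and in obese mice netrin-1 is made by adipose tissue macrophages.

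Because the siRNA was directed against a transcription factor, the promoters of the 4 genes are shown first, from 250 bases before to 50 bases after the annotated start of transcription. All 4 genes were matched in the RefSeq promoter table (mouse build GRCm38.p6). The sequences run 5′ to 3′ on the strand of the gene, and capitals mark CpG dinucleotides, the sites at which mammalian DNA is methylated. The promoter of Ntn5 lies at chr7:45683772-45684071 (plus strand), that of Cntn2 at chr1:132542891-132543190 (minus strand), that of Unc5b at chr10:60831532-60831831 (minus strand) and that of Ngfr at chr11:95587649-95587948 (minus strand).
Ntn5: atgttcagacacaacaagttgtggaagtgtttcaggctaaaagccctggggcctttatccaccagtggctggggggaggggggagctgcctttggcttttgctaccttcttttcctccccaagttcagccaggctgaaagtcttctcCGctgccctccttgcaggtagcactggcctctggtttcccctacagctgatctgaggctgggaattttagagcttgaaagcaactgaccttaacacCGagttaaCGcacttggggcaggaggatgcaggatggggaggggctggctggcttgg
Cntn2: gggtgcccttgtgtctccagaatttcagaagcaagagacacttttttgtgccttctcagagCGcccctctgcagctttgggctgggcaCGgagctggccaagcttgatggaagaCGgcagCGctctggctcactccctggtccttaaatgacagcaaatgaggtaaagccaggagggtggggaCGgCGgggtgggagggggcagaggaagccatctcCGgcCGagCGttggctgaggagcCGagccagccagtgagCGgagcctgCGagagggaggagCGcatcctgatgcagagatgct
Unc5b: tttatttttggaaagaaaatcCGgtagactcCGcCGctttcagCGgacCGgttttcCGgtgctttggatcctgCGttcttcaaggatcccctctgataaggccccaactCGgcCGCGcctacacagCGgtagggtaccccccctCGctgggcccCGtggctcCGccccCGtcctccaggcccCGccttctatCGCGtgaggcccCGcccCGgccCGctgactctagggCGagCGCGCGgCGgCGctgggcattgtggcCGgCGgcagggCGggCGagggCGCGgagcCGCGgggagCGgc
Ngfr: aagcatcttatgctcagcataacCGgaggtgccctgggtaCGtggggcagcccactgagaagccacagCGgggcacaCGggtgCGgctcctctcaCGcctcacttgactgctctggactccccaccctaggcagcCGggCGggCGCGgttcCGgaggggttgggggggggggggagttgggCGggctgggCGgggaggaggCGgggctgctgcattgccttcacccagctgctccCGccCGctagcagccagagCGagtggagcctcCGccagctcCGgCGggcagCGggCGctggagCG

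The promoters differed in CpG content. That of Ntn5 held 3 CpG dinucleotides, that of Cntn2 held 13, that of Ngfr 23 and that of Unc5b 36, where the median of 32851 promoters of the same length was 7 (quartiles 3 and 20). The GC content was 55.3% for Ntn5, 61.3% for Cntn2, 71.7% for Ngfr and 69.7% for Unc5b, against a median of 52.7%. The motif TAATTA, a core that LIM homeodomain proteins are known to recognise and that reads the same on both strands, was searched in each window. It had 0 matches in the 4 promoters, and 5.29% of all promoters held it. These letters are absent from these windows, which says nothing of binding by Lhx8.

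The 4 genes come from separate tables. Ntn5 (ENSMUSG00000070564) and Cntn2 (ENSMUSG00000053024) are in a table of 232 genes with estimated read counts, termed the count list. Unc5b and Ngfr are among 602 genes with values whose scale is not stated, termed the second list, and are given there by symbol alone. None of the 4 is in both. The count list summed to 24314 to 28919 in the 5 libraries other than vehicle 3, and to 130467 in vehicle 3. These sums are not the depth of the libraries, and the depth behind the second list is unknown.

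Ntn5, which encodes a secreted netrin family protein, had the smaller fold of both count list genes. Its counts were 7, 7 and 13 in the siRNA libraries 1 to 3, against 23, 17 and 29 in vehicle libraries 1 to 3. Every siRNA library was below every vehicle library, with a gap of 4 counts between the highest siRNA and the lowest vehicle library. The mean count was 9.0 ± 3.46 (SD, n = 3) with siRNA and 23.0 ± 6.0 (SD, n = 3) with vehicle, a vehicle level 2.56 times that of siRNA. Groups did not overlap, with siRNA lower, in 12.5% of the count list. That list holds genes selected for a difference between these groups, so nothing is read from the share.

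Few reads stand behind these values. The exact Poisson interval (95%, counting error only) was 2.81 to 14.4 for the 7 counts of siRNA 1 and 9.9 to 27.2 for the 17 counts of vehicle 2, and these intervals overlapped, whereas that of the 23 counts of vehicle 1, 14.6 to 34.5, lay above that of siRNA 1. Summed over libraries without scaling, siRNA had 27 counts (17.8 to 39.3) and vehicle had 69 (53.7 to 87.3). The sum of vehicle 1 and 2 alone was 40 (28.6 to 54.5). The intervals of these sums leave out the spread between libraries. Ntn5 also overlaps Sec1, a fucosyltransferase gene on the opposite strand. In the GENCODE M21 annotation 519 of the 2216 exonic bases of Ntn5 (23.4%) are exonic in Sec1 too. Use of strand in counting is not stated, so reads of the shared bases could not be told apart.

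Cntn2, which encodes contactin-2, an adhesion protein of axons and of the glia around the nodes of myelinated fibres, was carried by a single library. Its counts were 2, 3 and 4 in the siRNA libraries 1 to 3, against 2, 2 and 127 in vehicle libraries 1 to 3. Of the 6 libraries only vehicle 3 stood above 4 counts, and the other vehicle libraries lay at or below the siRNA libraries. The means were 3.0 ± 1.0 (SD, n = 3) with siRNA and 43.7 ± 72.2 (SD, n = 3) with vehicle. Without vehicle 3 the vehicle mean was 2.0, below that of siRNA. The exact Poisson interval of a count of 2 was 0.242 to 7.22 and that of a count of 4 was 1.09 to 10.2, so the 5 libraries other than vehicle 3 were not distinguishable at this depth.

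Unc5b, which encodes a netrin receptor of the repulsive type that also guides the tips of growing vessels, was the only one of the 4 with higher values in the siRNA libraries. Its values were 188.49, 187.52 and 189.06 in the siRNA libraries 1 to 3, against 152.42, 164.58 and 169.36 in vehicle libraries 1 to 3. All siRNA libraries were above all vehicle libraries, and the nearest pair was 18.2 apart. The siRNA libraries lay close together (188.4 ± 0.779, SD, n = 3) and the vehicle libraries further apart (162.1 ± 8.73, SD, n = 3). The siRNA mean was 16.2% above the vehicle mean. Over the 9 pairs of 1 siRNA and 1 vehicle library, the ratio of siRNA to vehicle ran from 1.11 to 1.24.

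Ngfr, which encodes the p75 receptor, a member of the tumour necrosis factor receptor family that binds all neurotrophins and marks Schwann cells and some mesenchymal progenitors, had lower values in every siRNA library than in any vehicle library. Its values were 0.07, 0.11 and 0.18 in the siRNA libraries 1 to 3, against 0.64, 0.54 and 0.95 in vehicle libraries 1 to 3. The lowest vehicle library was 3.0 times the highest siRNA library. The means were 0.12 ± 0.0557 (SD, n = 3) and 0.71 ± 0.214 (SD, n = 3), a vehicle level 5.92 times that of siRNA. Ngfr was close to the lower end of the scale. Only 2 of 602 genes had a lower mean, the median gene mean was 52.3, the smallest value above 0 in the list was 0.06, and values are given in steps of 0.01. Among the 273 genes of the second list with a value in every library, the groups did not overlap in 53.5% with siRNA lower and in 44.0% with siRNA higher, so the separation of Unc5b and Ngfr is shared by nearly every gene listed.

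**Figure D1:**
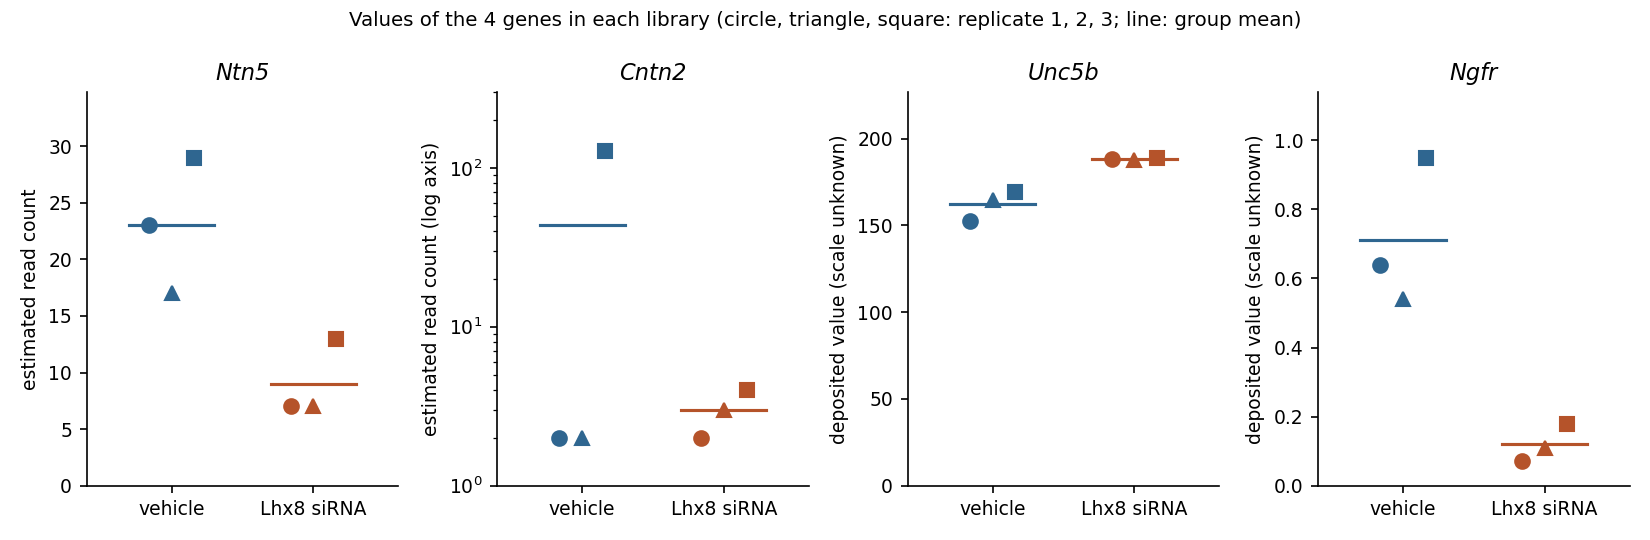
Values of Ntn5 and Cntn2 (estimated read counts, log axis for Cntn2) and of Unc5b and Ngfr (deposited values of unknown scale) in the 3 vehicle and 3 Lhx8 siRNA libraries, with a line at each group mean. The groups are apart for Ntn5, Unc5b and Ngfr, whereas for Cntn2 vehicle 3 alone, at 127, stands above 5 libraries at 2 to 4.

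The fit over the whole count list (edgeR, siRNA against vehicle, 1 common library size) gave a log2 fold of -1.34 ± 1.09 (SE) for Ntn5 and of -3.81 ± 1.33 for Cntn2. Here and below, the SE of an edgeR fold is approximate. It was derived from the fold and the F statistic of its test. Counted from the lowest fold, Cntn2 was in place 16 and Ntn5 in place 148 of 232 genes. Without vehicle 3 the fold of Ntn5 was -1.14 ± 0.388 and that of Cntn2 was 0.56 ± 0.717, and among the 201 genes then tested Ntn5 moved to place 18 and Cntn2 to place 165. The median fold of all genes was -1.55 over all libraries and -0.10 without vehicle 3. Ntn5 was thus above the median of its list with vehicle 3 and below it without that library. No gene of the count list was called at an adjusted p of 0.05 by edgeR (0 of 232, 0.0%), nor without vehicle 3 (0 of 201, 0.0%). An unadjusted p under 0.05 was reached by 27 genes (11.6%), and DESeq2 made 1 call when it estimated size factors and 0 when these were held at 1.

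The scaling of vehicle 3 decided whether the groups of Ntn5 overlapped. Scaled by TMM, which set the size of vehicle 3 at 6.29 times that of the mean siRNA library, the counts of Ntn5 were 7.18, 6.69 and 13.3 in the siRNA libraries 1 to 3, against 21.4, 16.6 and 4.61 in vehicle libraries 1 to 3. Vehicle 3 was then the lowest of the 6 libraries, and the log2 fold was -0.58 ± 0.646. Under that scaling the groups did not overlap, with siRNA lower, in 5.17% of genes, and Ntn5 was not among them. Scaled counts of Cntn2 were 2.05, 2.87 and 4.09 (siRNA) against 1.86, 1.95 and 20.2 (vehicle), so vehicle 3 was still the highest library. TMM assumes that most genes of the table are unchanged, which a list of selected genes does not give.

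A ratio of genes within a library does not depend on its scaling, and was taken for Ntn5 and Ntn1, the gene of netrin-1, after their values had been seen. Counts of Ntn1 were 16, 12 and 16 (siRNA) against 13, 17 and 112 (vehicle). Ntn5 made up 30.4%, 36.8% and 44.8% of the counts of both genes in the siRNA libraries 1 to 3, against 63.9%, 50.0% and 20.6% in vehicle libraries 1 to 3, uncorrected for gene length. The share in vehicle 1 and 2 was above that in each siRNA library, and the share in vehicle 3 was below it. The exact binomial interval (Clopper-Pearson, 95%) was 46.2% to 79.2% in vehicle 1, 26.4% to 64.3% in siRNA 3 and 14.2% to 28.2% in vehicle 3, so siRNA 3 and vehicle 1 were not distinguishable at this depth.

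Relative to the other vehicle libraries, vehicle 3 treated the 4 genes unequally. Its value over the mean of vehicle 1 and 2 was 63.5 for Cntn2, 1.61 for Ngfr, 1.45 for Ntn5 and 1.07 for Unc5b. In the count list the median of this ratio was 5.72 over 222 genes (5th to 95th percentile 0.291 to 32.0). Cntn2 had the ratio in place 6 from the highest, and Ntn5 that in place 24 from the lowest. In the second list the median was 1.04 over 386 genes (0.931 to 1.15), and Ngfr had the second highest ratio. Both tables hold 17 of the same genes, and 14 of these had all vehicle values in each. Their ratio ran from 2.20 to 115 (median 6.35) by the count list but only from 1.00 to 1.14 (median 1.08) by the second. The 2 tables thus place vehicle 3 differently for the same genes. Cntn2 is in the count list alone, so no second value of it was compared.

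**Figure D2:**
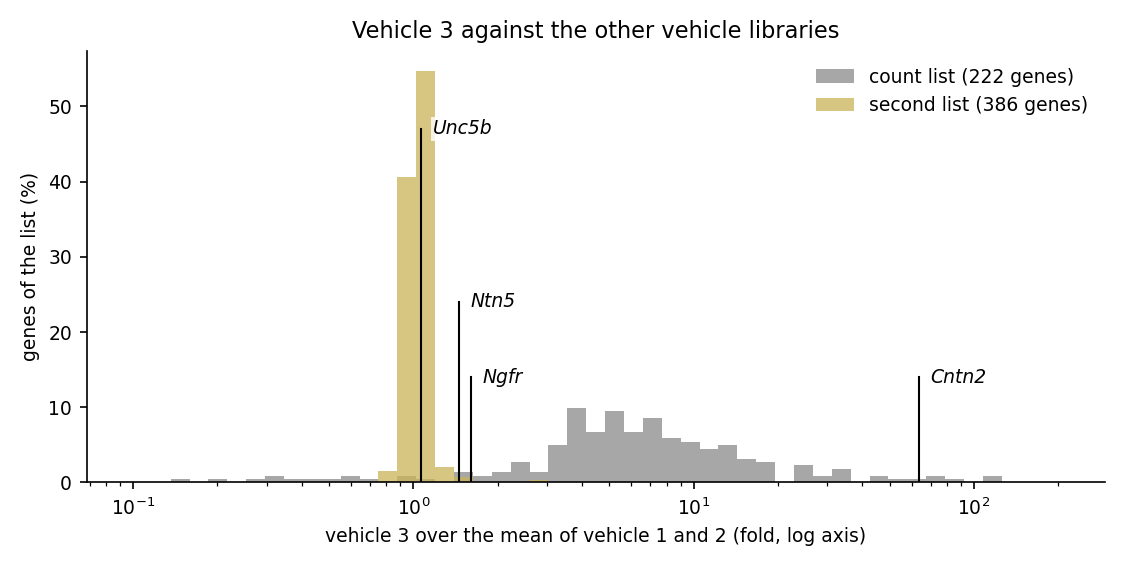
Distribution over genes of the value in vehicle 3 divided by the mean of vehicle 1 and 2 (log axis), as a percentage of the genes of each list, with lines at Ntn5, Cntn2, Unc5b and Ngfr whose heights carry no value. The count list is centred near 5.72 and the second list near 1.04, Ntn5 (1.45) sits below most of its list, and Cntn2 (63.5) near the top of it. The 6 count list genes with a ratio of 0 are not drawn.

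For the second list, the fit over all genes with at least 2 values in each group (limma, on the log2 of the value plus 0.1) gave a log2 difference of 0.22 ± 0.050 (SE) for Unc5b and of -1.88 ± 0.352 for Ngfr. Without vehicle 3 they were 0.25 ± 0.0561 and -1.68 ± 0.375. Ngfr had the second lowest log2 difference of 496 genes, and Unc5b was in place 175 from the highest. The genes with a lower mean than Ngfr were also near the lowest place. LOC665755 (mean 0.28) was in place 1 from the lowest (-2.555) and Fam69c (mean 0.167) in place 4 (-1.28). The pseudocount weighs heavily on a gene as low as Ngfr, whose difference was -0.60 with a pseudocount of 1, -2.52 with 0.01 and -2.63 with none. Both genes were past an adjusted p of 0.05, as were 48.8% of the 496 genes with lower and 49.6% with higher values in siRNA, and the rule used this contrast, so nothing is read from the calls. Differences of the second list are on this log2 scale and are not comparable in size with the folds of the count list.

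The other genes of axon guidance were taken from 7 lists of 163 genes, of which the count list held 8 and the second list 12, the 4 genes included. In the count list 0 of these 8 passed the test, and the log2 fold was below 0 for 7 and above 0 for 1, where the median was -1.39 against -1.55 over all 232 genes. Without vehicle 3, 5 were negative and 3 positive (median -0.05, against -0.10 over all genes), and with TMM 4 of each sign were found. Vehicle 3 held the highest count for 7 of the 8, and for 201 of the 232 genes of the count list. In the second list 8 of the 12 had enough values to be tested, and all 8 passed, 3 lower and 5 higher with siRNA, where 488 of 496 genes passed. The rest, untested, were lower with siRNA in the few values they had.

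Among the ligands of the count list, Ntn1 had a log2 fold of -1.68 ± 1.09, which was -0.03 ± 0.311 without vehicle 3. The groups overlapped, since Ntn1 had 13 and 17 counts in vehicle 1 and 2. Sema4a, a membrane-bound semaphorin, had counts of 23, 38 and 25 (siRNA) against 45, 24 and 108 (vehicle), for a fold of -1.04 ± 1.07 on the log2 scale, which became -0.27 on leaving out vehicle 3 and 0.07 under TMM. Of these ligands Ntn5 had the fold that changed least when vehicle 3 was left out (-1.34 and -1.14), but it was -0.58 under TMM. With 1 common library size the small change follows from its low ratio of vehicle 3 to the other vehicle libraries (1.45), so nothing is read from it.

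Receptors of neurotrophic factors were in the count list too. Sort1 encodes sortilin, which pairs with p75 in binding immature neurotrophins and also sorts glucose transporter vesicles in fat cells. Its counts were 19, 16 and 16 (siRNA) against 26, 23 and 89 (vehicle), without overlap, and its log2 fold was -1.43 ± 1.05 (-0.52 ± 0.262 without vehicle 3, -0.23 under TMM). Such a separation, with siRNA lower, was found in 12.5% of the count list. Sorcs2, a relative of sortilin that also binds p75, had 461, 507 and 546 against 591, 463 and 3053. Its log2 fold was -1.44 ± 0.887, or -0.06 without vehicle 3 and 0.03 under TMM. Gfra2, the receptor of the growth factor neurturin, had 4, 15 and 11 against 6, 9 and 51, and its fold of -1.13 ± 1.13 (log2) became 0.41 on leaving out vehicle 3 and 0.39 under TMM. Each of these receptors had its highest count in vehicle 3, like most of the count list.

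Epha3, an ephrin receptor, was the gene of these lists with a positive fold in the count list. Its counts were 16, 13 and 24 (siRNA) against 8, 11 and 3 (vehicle), so the groups did not overlap and vehicle 3 was the lowest library. The log2 fold was 1.25 ± 1.18, 0.89 ± 0.397 without vehicle 3 and 1.71 under TMM. Groups did not overlap, with siRNA higher, in 6.03% of the count list. Like the rest of that list, Epha3 was not called.

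In the second list Neo1, the gene of neogenin, a netrin receptor of the attractive type, was higher with siRNA, as Unc5b was. Its values were 204.22, 205.01 and 194.58 (siRNA) against 177.3, 183.95 and 183.13 (vehicle), and its log2 difference was 0.15 ± 0.0471. The ratio of Unc5b to Neo1 within a library was 0.923, 0.915 and 0.972 in the siRNA libraries 1 to 3, against 0.860, 0.895 and 0.925 in vehicle libraries 1 to 3, and these ranges overlapped. Both netrin receptors were thus higher with siRNA, and their ratio did not separate the groups. Of the 496 genes tested, 49.6% were called higher with siRNA (limma, adjusted p under 0.05), so nothing is read from the shared direction.

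Dpysl3, which encodes a cytosolic protein that relays semaphorin signals to the cytoskeleton, was higher with siRNA (126.73, 132.88 and 132.22 against 110.08, 104.93 and 109.22, log2 difference 0.27 ± 0.0502). Plxnd1, the plexin that binds semaphorin 3E, was lower (104.94, 111.83 and 112.04 against 115.51, 119.82 and 129.87, log2 difference -0.15 ± 0.0550), but its call was lost without vehicle 3 (-0.10, limma adjusted p = 0.0964), without siRNA 1 (-0.12) and with libraries centred on their median (-0.08). Of the ephrin system, the receptor Epha2 was higher (0.28 ± 0.0745) and the ligand Efna2 lower (-0.34 ± 0.0932), with 1 value of Epha2 and 2 of Efna2 lost to cells that hold dates. Ncam1, a neural cell adhesion molecule, and Srgap1, a signalling partner of the receptors of the slit proteins, had too few values to be tested. So had the semaphorin genes Sema3c and Sema6d. Srgap1 was 13.93, 14.71 and 15.39 with siRNA and 17.76 in the single vehicle library with a value. Ncam1 was 72.49 in the single siRNA library with a value and 97.67, 101.3 and 102.41 with vehicle. Beside these genes, Ngfr had the lowest mean, 0.415, and the widest log2 difference.

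**Figure D3:**
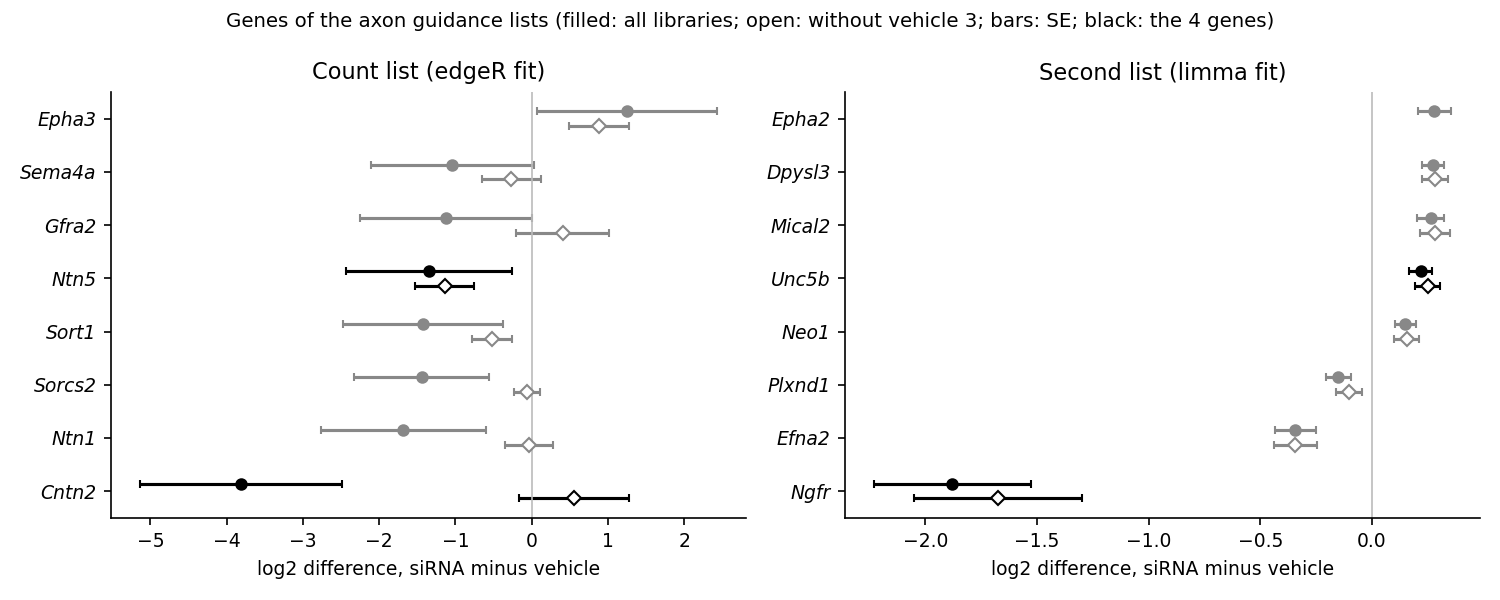
Log2 difference, siRNA minus vehicle, with its SE, for the 8 genes of the axon guidance lists in the count list and the 8 tested genes in the second list, over all libraries (filled) and without vehicle 3 (open), with the 4 genes in black. The SE in the count list is approximate, derived from the F statistic. In the count list the open symbols lie closer to 0 than the filled ones for all 8 genes, with Cntn2 and Gfra2 crossing it and Ntn5 staying at -1.14, while in the second list the pairs lie close together and Epha2 has no open symbol.

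The pattern most like that of each gene within its own table was measured as the root mean square difference of log2 (value plus 1) profiles, each centred on its own mean. For Ntn5, over 173 genes and 6 libraries, the nearest were the predicted gene Gm10406 (0.318), Mmrn2 (0.345), which encodes a matrix protein of vessel walls, and Laptm4b (0.348), which encodes a lysosomal membrane protein. Laptm4b had counts of 878, 953 and 872 (siRNA) against 1557, 1509 and 2627 (vehicle), the same order of groups as Ntn5 at a far higher count. The profile of Ntn5 itself had a root mean square of 0.728 about its mean.

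For Cntn2 the nearest were Cmklr1 (0.428), the receptor of the adipokine chemerin, Aldh1l1 (0.517), a folate enzyme, and Enpp1 (0.558), which makes pyrophosphate. By the count list each was near 0 in 5 libraries and high in vehicle 3, with 66 counts for Cmklr1, 62 for Aldh1l1 and 115 for Enpp1. By the second list Enpp1 was 20.26, 19.36 and 22.61 in vehicle libraries 1 to 3, so its profile differed between the tables. For Unc5b the nearest of 459 genes were Flnc (0.00970 over 4 libraries), an actin crosslinker, Erc1 (0.0130 over 5), a scaffold of secretory sites, and Setbp1 (0.0185 over 5), a nuclear protein. For Ngfr they were Enpp1 (0.0428 over 5 libraries), Ifi27l2a (0.0732 over 5), an interferon-induced gene, and Ptn (0.0733 over 6), which encodes the growth factor pleiotrophin. Adding 1 flattens values as low as those of Ngfr, whose likeness is therefore to genes of smaller relative difference. These likenesses are a description over at most 6 libraries.

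Markers of the cell types in which these genes are best known were scarcely listed. Of 14 neuron markers 0 were in either table. Of 13 markers of Schwann cells and glia 2 were in the second list, Pmp22 and Egr2, and the one with all values summed to 231.6 to 259.1 with siRNA and 258.3 to 277.0 with vehicle. Of 12 endothelial markers only Clec14a was listed, with 46 to 68 counts with siRNA, 69 and 56 in vehicle 1 and 2 and 432 in vehicle 3. Of 12 leukocyte markers only Itgb2 was, with 19 to 21 counts with siRNA, 19 and 14 in vehicle 1 and 2 and 213 in vehicle 3. Msln and Lrrn4, of 12 epithelial and mesothelial markers, summed to 605 to 721 with siRNA, 657 and 592 in vehicle 1 and 2 and 3740 in vehicle 3. All 4 of these count list markers were highest in vehicle 3, as were 201 of the 232 genes of that list, so this sets them apart from few others. Their part in the values of Cntn2 and Ntn5 was not tested.

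The labelled cell type was not settled by the few markers listed. Of 12 preadipocyte and fibroblast markers Pdgfra, Col3a1 and Ly6a were in the second list, and the 2 with all values summed to 587.6 to 618.2 with siRNA and 704.5 to 778.1 with vehicle. Of 12 adipocyte markers Adipoq and Lpl were listed. The one with all values, Lpl, was 278.7 to 298.7 with siRNA and 335.5 to 377.1 with vehicle. Adipoq had a log2 difference of -1.47. Of 10 pericyte and smooth muscle markers 4 were in the second list, Cspg4, Acta2, Tagln and Cnn1. The 2 with all values summed to 1685 to 1811 with siRNA and 1360 to 1540 with vehicle. These sums differed between the groups in the direction of Ngfr for the first 2 lists and of Unc5b for the last. Groups did not overlap in 53.5% (siRNA lower) and 44.0% (siRNA higher) of the second list genes with all values. Nothing is therefore read about cell types from these sums. Fewer cells of a type also cannot be told apart from less RNA per cell.

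**Figure D4:**
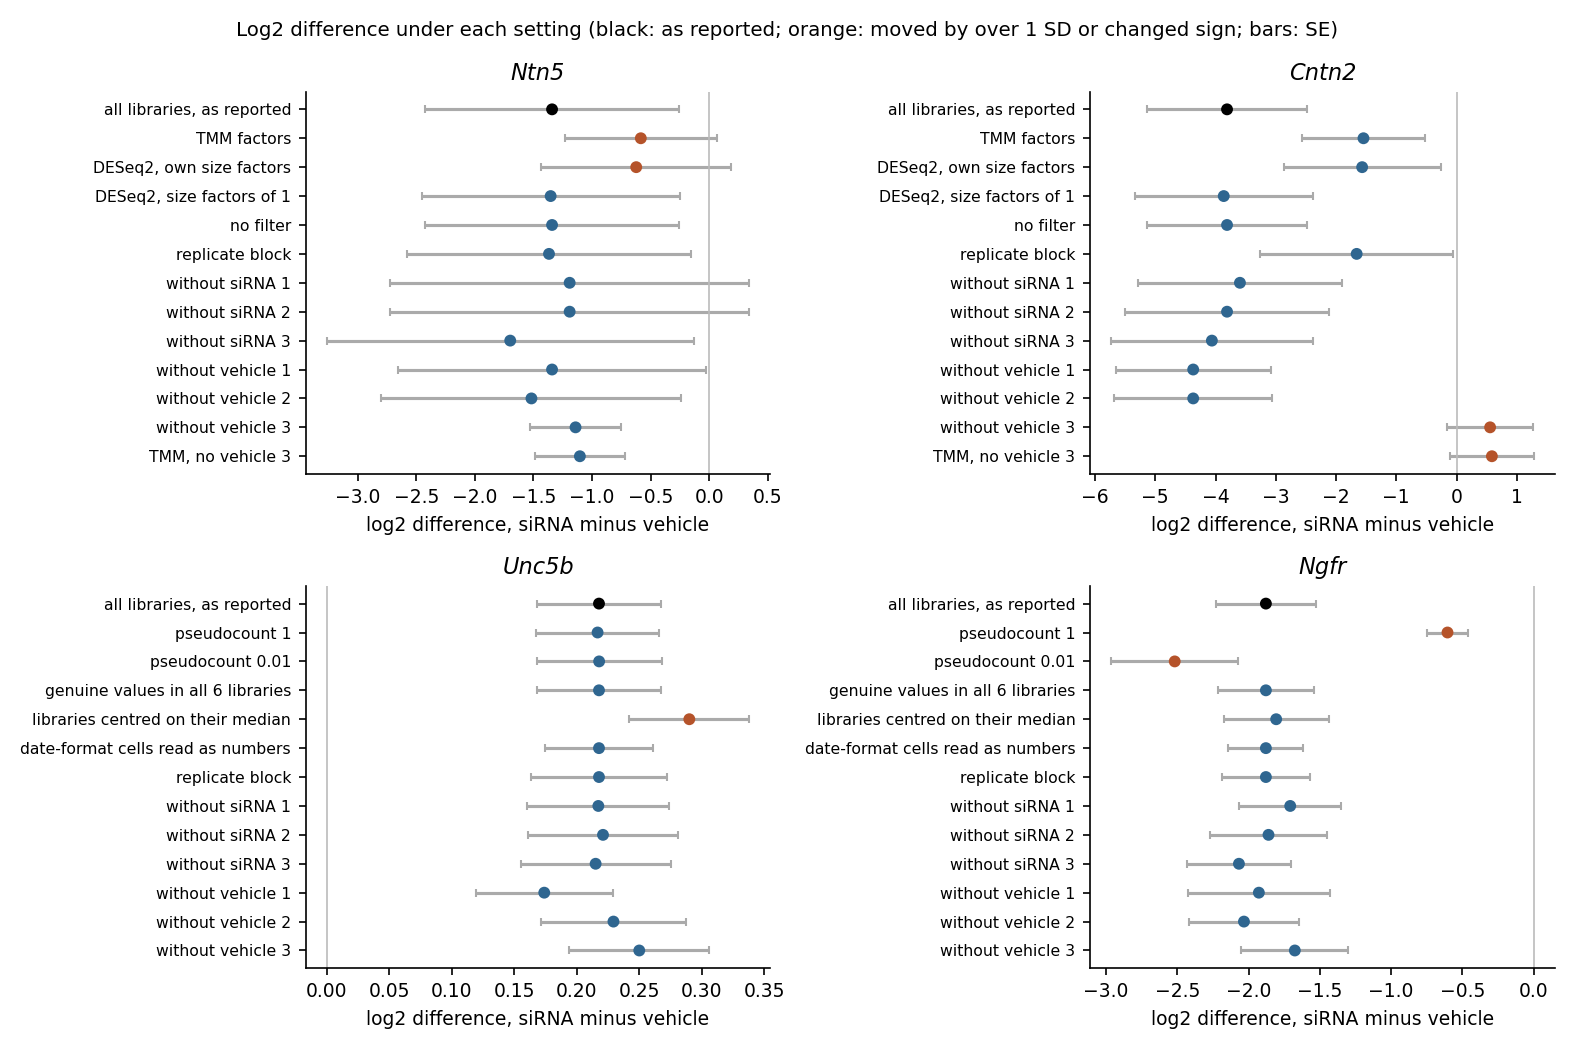
Log2 difference, siRNA minus vehicle, of Ntn5, Cntn2, Unc5b and Ngfr under each setting, with its SE, the value as reported in black and values that moved by more than 1 SD between replicates or changed sign in orange. The SE of edgeR settings is approximate, derived from the F statistic, whereas DESeq2 gives its own. Cntn2 changes from -3.81 to -1.54 with TMM and to 0.56 without vehicle 3. Ntn5 is between -1.70 and -0.58, Unc5b between 0.17 and 0.29, and Ngfr between -2.52 and -0.60 depending on the pseudocount.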

How the data were processed

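The labels and the study's methods name poly(A) selection, sequencing of DNA nanoballs, alignment with HISAT and Bowtie2, quantification with RSEM and comparison with DESeq2. For versions, build and annotation, nothing is given in the sources used here. The authors deposited estimated counts for the count list, beside group means, a log2 ratio and a p-value of their own comparison, which were not used. The values of the second list, which the authors deposited as read counts, are whole numbers in only 0.920% of cases and were treated as a score of unknown scale. Of its 3612 cells, 528 in date format and 42 calendar dates were left out. None of them belongs to Unc5b or Ngfr.

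Groups came from the sample titles. Counts were rounded, genes with a summed count of at least 10 were kept, and edgeR 4.0.16 (quasi-likelihood test, R 4.3.3) was run with a common library size. Values of the second list were tested with limma 3.58.1 (trend) after adding 0.1, for genes with at least 2 values per group. The SE of an edgeR fold was taken as its absolute value over the square root of the F statistic. Adjustment was by Benjamini-Hochberg over each list. Both fits were also run on simulated data. The outcome is not given here, so nothing is read from those runs about how the fits treat these genes or libraries. The alternatives were TMM, DESeq2 1.42.0, other filters and pseudocounts, median centring, date-format cells read as numbers, a replicate block and leaving out each library.

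The 4 genes, the gene lists and the tests were chosen with earlier results of these data known. The genes named are the 4, the listed genes of each axon guidance list (the 2 highest where a list had over 4 listed) and the 3 nearest profiles of each. Mical2, beyond that rule, is only plotted, and Sema3c and Sema6d are named only as untested. TMM without vehicle 3, and counts of axon guidance genes without vehicle 3, were added after seeing the data. Intervals cover counting error only.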

Additional observations from a re-analysis of the deposited data

How the results depend on the processing

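The log2 difference kept its sign for Ntn5, Unc5b and Ngfr under all settings run, and changed sign for Cntn2. The groups of Ntn5, Unc5b and Ngfr did not overlap in the deposited values. Leaving out a library or changing the pseudocount could therefore not turn their sign, and nothing is read from its being kept. Leaving out 1 library gave -1.70 to -1.14 for Ntn5, 0.17 to 0.25 for Unc5b, -2.07 to -1.68 for Ngfr and -4.37 to 0.56 for Cntn2. The positive value of Cntn2 came without vehicle 3, and was 0.59 with TMM as well, where the count list had 1 call. Ntn5 was -0.58 ± 0.646 (SE) with TMM and -0.62 ± 0.813 with DESeq2 and its own size factors. Unc5b was 0.29 with libraries centred on their median, and Ngfr -0.60 and -2.52 with pseudocounts of 1 and 0.01. The cause of these shifts was not tested, apart from the pseudocount, which acts by construction.

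In the count list 1 of 232 genes was called by DESeq2 with its own size factors, and leaving out 1 library gave 0 to 6 calls. There were 6 of 231 without vehicle 1 and 5 of 232 without vehicle 2. Cntn2 was among them each time, with vehicle 3 its only library above 4 counts. It was chosen on this contrast, so nothing is read from these calls. In the second list 271 of 273 genes were called where all 6 values were required, against 488 of 496. Leaving out 1 library gave 370 calls of 383 genes tested (without siRNA 1) to 398 of 409 (without vehicle 3). The lower numbers go with fewer genes tested. With libraries centred on their median, 435 of 496 genes were called. Whether replicate numbers pair the samples was not settled with so few libraries. Deviations of same-numbered libraries correlated at 0.0662, 0.0452 and 0.117 in the count list and at 0.253, 0.123 and 0.0343 in the second list. The best-correlated vehicle library had the same number for siRNA 2 and 3 in the count list and for siRNA 1 in the second list, and another number otherwise. With a replicate block the values were -1.37 for Ntn5, -1.66 for Cntn2, 0.22 for Unc5b and -1.88 for Ngfr. Calls were then 0 of 232 in the count list and 445 of 455 in the second list. Few reads limit Ntn5 and Cntn2, and the depth behind Ngfr is unknown.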
